A study of Mus musculus with 20 samples.

Results

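The receptors, ligands and targets of Notch signalling were followed in mouse intestinal tissue as 10 genes, chosen with earlier results of these data known. These were the receptors Notch1, Notch2 and Notch3, the ligands Dll1, Dll4, Jag1 and Jag2, the glycosyltransferase Lfng and the transcriptional targets Hes1 and Hey1. They were found as every probe that carried one of these gene names in the array files, which gave 14 probes of 56605 and 10 genes of 25043 with a name. The arrays came from 20 C57BL6/j mice in 4 groups. The 6 Cre control mice carried the tamoxifen-inducible recombinase VillinCreER/0 with both Braf alleles intact, and the 6 BRAFV600E mice carried VillinCreER/0 together with 1 inducible BrafV600E-LSL allele beside a normal one. Both groups were 8 to 12 weeks old, received 3 daily tamoxifen injections of 2 mg and were sampled 3 days after the last injection. The 4 MEKi and 4 Vehicle mice received 2 tamoxifen injections of 1 mg and then 3 daily injections of the MEK inhibitor PD184352 or of its carrier. The study's methods give 8 to 12 weeks for induced mutant mice in general and no separate age for these. That these mice carried the mutant allele, expressed for 3 days, comes from the study's figure legends. The Villin promoter drives recombination in the gut epithelium only, while the RNA came from whole tissue, so a transcript can also derive from vessels, muscle, stroma or immune cells. In such samples, fewer cells of a type and less RNA per cell cannot be told apart.

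Notch signalling passes between cells in contact. A ligand of the Delta or Jagged type on one cell binds a Notch receptor on its neighbour, the receptor is cut by an ADAM protease and then by gamma-secretase, and the freed intracellular part joins the DNA-binding protein Rbpj and the coactivators of the Maml family to switch on Hes and Hey genes. These encode repressors that hold down Atoh1, the factor that commits a crypt cell to the secretory lineage. In the crypt, secretory cells, Paneth cells among them, display Dll1 and Dll4 to the stem cells beside them, and fringe enzymes such as Lfng add a sugar to the receptor that changes which ligand it answers to. Endothelium uses the same parts, with Dll4, Jag1 and Hey1 prominent there.

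The arrays were 1-colour Agilent arrays, and each value below is the log2 processed signal minus that array's 75th percentile, so a negative level only means a signal under the 75th percentile. Between 60.8% and 76.8% of spots per array were well above background and 0 were saturated. The slope recorded for the spike-in control spots was 0 on BRAFV600E replicates 3 to 6. It was 0.77, 0.84 and 0.76 on Cre control replicates 2, 3 and 5, and 1.02 to 1.08 on all other arrays. Its part in the differences between groups was not tested. All 7 epithelial marker genes were measured in both comparisons, with a mean level of 5.66 to 6.09 in Cre control and 5.89 to 6.46 in BRAFV600E. Cre control and BRAFV600E replicates 1 and 2 shared slide 1, whereas BRAFV600E replicates 3 to 6 lay alone on slide 2. MEKi and Vehicle lay on slide 3 in separate rows, so row and treatment cannot be told apart. Y-linked signal was high on 3 of 6 Cre control, 4 of 6 BRAFV600E, 4 of 4 MEKi and 2 of 4 Vehicle arrays. The Braf probe with the highest mean level does not tell the mutant allele from the normal one, and its log2 fold change was 0.42 ± 0.20 (SE, n = 6 per group, limma adjusted p = 0.173). Other Braf probes that were tested differed in sign, at −0.08 ± 0.22, −0.14 ± 0.25 and 0.89 ± 0.38 (SE, n = 6 per group, limma adjusted p = 0.852, 0.766 and 0.148 over all probes tested).

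In BRAFV600E against Cre control, 2 of the 10 genes passed the test, Dll4 lower and Dll1 higher. The test was limma at a Benjamini-Hochberg adjusted p under 0.05 over all 19036 genes tested, of which 12.9% passed, 6.39% higher and 6.51% lower. The median log2 fold change of the 10 genes was −0.18, against −0.02 over all genes tested, with 3 values above 0 and 7 below. With every probe tested in place of 1 per gene, 9.6% passed in all, and 2 of the family. In a fit that took slide as a block 8.24% of genes passed, and within slide 1 alone 3.84%, and in both cases 1 of the 10 genes, Dll4. In MEKi against Vehicle, 0 of the 10 genes passed limma's test, while 1.93% of 19230 genes did, 1.05% higher and 0.884% lower. Unadjusted, p was under 0.05 for 2, Dll4 and Hes1, both higher in MEKi, beside 3147 of all 19230 genes tested. The median over the 10 genes was 0.15, against 0.04 over all genes tested, with 8 values above 0 and 2 below.

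**Figure D1:**
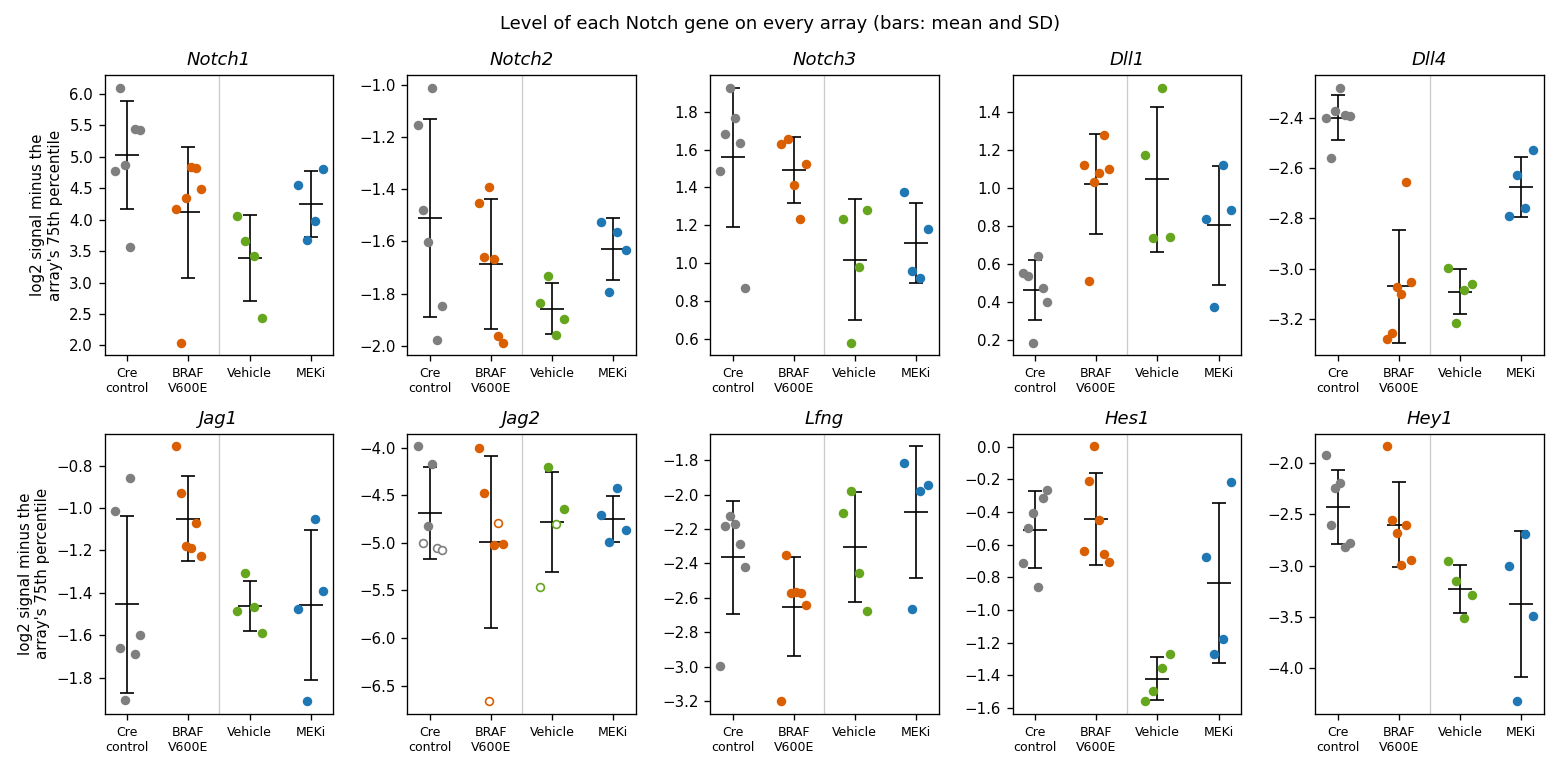
Level of each of the 10 genes on every array, as the log2 processed signal minus the array's 75th percentile, with the mean and SD of each group. Open circles are spots not well above background; Dll4 separates both pairs of groups, with Cre control at −2.56 to −2.28 and BRAFV600E at −3.28 to −2.65.

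The 3 receptors gave no call in either comparison. Notch1, the main receptor of the crypt, ran from 3.57 through a median of 5.15 to 6.10 in Cre control and from 2.05 through 4.41 to 4.84 in BRAFV600E. The groups overlapped, with the lowest BRAFV600E array, replicate 2, well under the other 5. The log2 fold change was −0.92 ± 0.50 (SE, n = 6 per group, limma adjusted p = 0.237), but −1.93 on slide 1 alone (limma adjusted p = 0.164) and −0.50 without BRAFV600E replicate 2 (limma adjusted p = 0.409). In MEKi the levels were 4.55, 3.67, 3.97 and 4.81, against 4.05, 3.66, 3.42 and 2.44 in Vehicle. These groups overlapped too, and the log2 fold change was 0.86 ± 0.38 (SE, n = 4 per group, limma adjusted p = 0.315), and 0.54 without Vehicle replicate 4 (limma adjusted p = 0.508).

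The probe behind these Notch1 values holds an uninterrupted run of the triplet GAA, in capitals below. It lies on the minus strand at chr2:26319440-26319499 (mm9). The sequence is printed whole because the probe's level followed that of many other probes with the repeat. Beneath it stand 30-base windows of 4 named probes with the repeat, among those whose level was most like that of Notch1. Probes at some map positions, and those without one, were left out of that choice. Windows of the Dlk1 and Numbl probes follow, Dlk1 being a Delta-like protein and Numbl a relative of the Notch inhibitor Numb.

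Notch1: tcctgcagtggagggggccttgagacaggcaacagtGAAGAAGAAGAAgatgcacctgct
Bptf: ctaagtccaaGAAGAAGAAgatgatctcta
Gm35358: taaacaagaGAAGAAGAAGAAatcccaagc
Trpm1: gaagaaaaaGAAGAAGAAGAAagaggaaga
Stra6: aggccggcaGAAGAAGAAGAAgggatgcag
Dlk1: tgcttcgcaaGAAGAAGAAcctcctgttgc
Numbl: aggaGAAGAAGAAgggggtgcctggcgggt

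Over the 20 arrays, the Notch1 probe correlated with the Bptf probe at r = 0.990, with Gm35358 at 0.990, with Trpm1 at 0.988, with Stra6 at 0.986, with Numbl at 0.980 and with Dlk1 at 0.858. Of the 37979 other probes well above background on at least 10 arrays, 0.334% held GAAGAAGAA, whereas 53 of the 100 probes most like Notch1 did. The 127 probes with the repeat had a median correlation with Notch1 of 0.851, against 0.00 over all probes compared and 0.03 over the 37 probes that held TTCTTCTTC, the same repeat on the other strand. Not all of them followed it: 48 of the 127 had a correlation over 0.9, and the 5th percentile over the 127 was −0.18. The correlation between Notch1 and the per-array median of the 127 probes was r = 0.944 and rho = 0.935 over 20 arrays (permutation test with 100000 resamples, two-sided p = 2e-05 for each, the smallest it can give). The permutation shuffled all 20 arrays without regard to group or slide, so its p also takes in differences between groups. The correlation was r = 0.924 and rho = 0.911 without the 2 arrays farthest from the median. Within the 6 Cre control arrays it was r = 0.957 and rho = 0.943, and within the 6 BRAFV600E arrays r = 0.954 and rho = 0.771. With each group centred on its mean, it was r = 0.914. The other 9 genes of the family held no probe with the repeat, and within groups they followed that median at r between −0.30 and 0.33. The 127 probes were also lower in BRAFV600E by a median of −0.78 and higher in MEKi by 0.48, next to −0.92 and 0.86 for Notch1 itself, −0.99 and 0.99 for Dlk1 and −0.98 and 0.87 for Numbl. A Dlk1 probe without the repeat stood at −0.95 ± 0.42 in BRAFV600E and 0.09 ± 0.57 in MEKi (SE, limma adjusted p = 0.165 and 0.969 over all probes tested). A Numbl probe without it stood at −0.43 ± 0.19 in BRAFV600E (SE, limma adjusted p = 0.163 over all probes tested). How much of the signal came from Notch1 transcripts was not tested. This comparison with repeat probes was chosen after the Notch1 values were seen.

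**Figure D2:**
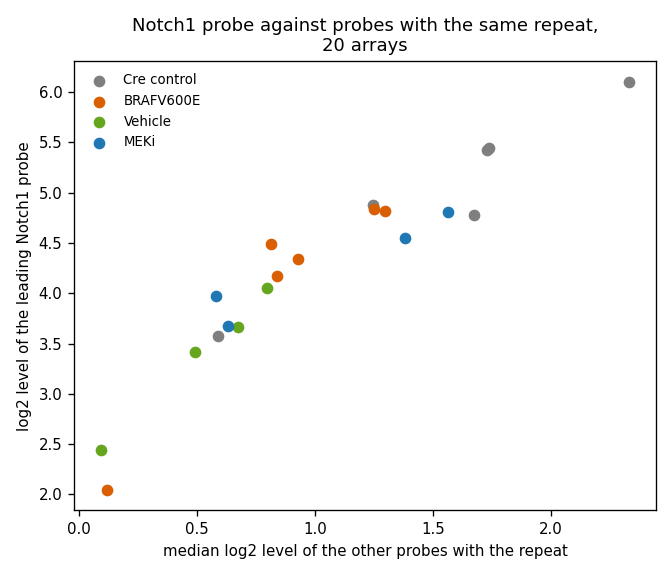
Each point is 1 of 20 arrays, coloured by group. The horizontal axis is the median log2 level of the 127 other probes with the GAA repeat and the vertical axis the log2 level of the leading Notch1 probe, both relative to the array's 75th percentile; the points rise together, at r = 0.944.

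A second Notch1 probe, at chr2:26354049-26354108 (mm9), gave no usable level. It was well above background on 2 of 6 Cre control arrays and on 0 of the 14 others, and was not tested.

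Notch2, a receptor that shares the crypt with Notch1, ran from −1.98 through −1.54 to −1.01 in Cre control and from −1.99 through −1.66 to −1.39 in BRAFV600E. The ranges nearly coincided, with a log2 fold change of −0.18 ± 0.19 (SE, n = 6 per group, limma adjusted p = 0.567). In MEKi it stood at −1.53, −1.80, −1.56 and −1.63, and in Vehicle at −1.84, −1.73, −1.96 and −1.90. Only MEKi replicate 2 fell inside the Vehicle range, and the log2 fold change was 0.23 ± 0.12 (SE, n = 4 per group, limma adjusted p = 0.387). A second Notch2 probe, at chr3:97904420-97904479 (mm9) in place of chr3:97953914-97953973, was well above background on 5 of 6 Cre control and 0 of 6 BRAFV600E arrays. Its mean was −4.72 in Cre control and −6.54 in BRAFV600E, and with 0 BRAFV600E arrays well above background no fold change is given. The groups overlapped, with Cre control replicate 4 at −5.84 and BRAFV600E replicates 4 and 5 at −5.74 and −5.72. That probe was too dim to be tested there. In MEKi against Vehicle its log2 fold change was 0.69 ± 0.38 (SE, n = 4 per group, limma adjusted p = 0.502 over all probes tested, of which 0.935% passed).

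Notch3, the receptor of smooth muscle and pericytes, ran from 0.87 through 1.66 to 1.92 in Cre control. In BRAFV600E it ran from 1.23 through 1.52 to 1.66 over 5 arrays, the spot on replicate 5 having been marked as an outlier and dropped. The BRAFV600E values lay within the Cre control range, and the log2 fold change was −0.07 ± 0.18 (SE, limma adjusted p = 0.842). In MEKi the levels were 1.37, 0.96, 0.92 and 1.18 and in Vehicle 1.23, 0.58, 0.98 and 1.28, which overlapped, with a log2 fold change of 0.09 ± 0.19 (SE, n = 4 per group, limma adjusted p = 0.877).

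Among the ligands, Dll4, a Delta ligand of crypt and vessel, had the lowest adjusted p of the family. Its probe lay at chr2:119160779-119160838 (mm9, plus strand). It ran from −2.56 through −2.39 to −2.28 in Cre control and from −3.28 through −3.09 to −2.65 in BRAFV600E. Every BRAFV600E array lay below every Cre control array, as for 7.46% of genes tested, and replicate 5 stood above the other 5 BRAFV600E arrays. Dll4 fell by 0.67 on the log2 scale, which is 1.59-fold lower (SE 0.12, 95% interval −0.94 to −0.40, n = 6 per group, limma adjusted p = 0.00559). On slide 1 alone, where BRAFV600E replicates 1 and 2 stood at −3.28 and −3.26, the log2 difference from the 6 Cre control arrays was −0.87 (limma adjusted p = 0.0212), and in a fit that took slide as a block −0.87 (limma adjusted p = 0.00699). The limma adjusted p reached at most 0.0151 when any 1 array was left out. Without scaling between arrays, which moved the median of all genes by 0.81, the log2 fold change was 0.14 (limma adjusted p = 0.679).

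With the MEK inhibitor, Dll4 stood at −2.79, −2.63, −2.76 and −2.53, and with vehicle at −3.00, −3.22, −3.09 and −3.06. All 4 MEKi arrays lay above all 4 Vehicle arrays, as for 12.1% of genes tested in either direction. The log2 fold change was 0.42, with a 95% interval of 0.15 to 0.68, and did not pass the test (SE 0.12, n = 4 per group, limma adjusted p = 0.127). With normexp background correction it was 0.21 (limma adjusted p = 0.427).

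Lists of cell type markers moved with Dll4 to different degrees, and their part in its change was not tested. The Paneth cell list, 5 of 6 genes having a probe, had 4 genes lower in BRAFV600E and a median log2 fold change of −2.01, with a mean level of 3.83 to 6.10 in BRAFV600E and 6.57 to 7.09 in Cre control. Of the 5 goblet cell markers, 3 were lower, with a median of −0.80 and a mean level of 6.11 to 7.15 against 7.09 to 7.66. Of the 10 endothelial markers, 0 passed limma's test and 1 had an unadjusted p under 0.05, with 5 values above 0 and 5 below, a median of −0.02 and a mean level of −1.02 to −0.36 against −1.25 to −0.41. In MEKi against Vehicle, 0 Paneth genes passed limma's test and 1 had an unadjusted p under 0.05, with a median of 0.79 and a mean level of 6.74 to 7.55 against 5.19 to 6.88. The goblet median there was 0.71 with 0 passing and 3 at an unadjusted p under 0.05, and the endothelial median −0.22 with 0 passing and 0 at an unadjusted p under 0.05. Over all genes tested, limma's unadjusted p was under 0.05 for 5779 of 19036 in BRAFV600E and 3147 of 19230 in MEKi. In both comparisons Dll4 and the Paneth and goblet medians thus had the same sign, as had other lists. The medians in BRAFV600E and MEKi were −0.47 and 0.42 for crypt base stem cells, −0.55 and 0.32 for enteroendocrine cells, −0.84 and 0.77 for T cells and −0.29 and 0.26 for B cells. Over the 20 arrays, with each group centred on its mean, Dll4 followed the B cell list at r = 0.57 and rho = 0.24. Enterocytes stood at 0.50 and 0.36, Paneth cells at 0.39 and 0.20, goblet cells at 0.39 and 0.305 and T cells at 0.36 and 0.28. Enteroendocrine cells stood at −0.30 and −0.27, crypt base stem cells at −0.34 and −0.24 and proliferating cells at −0.39 and −0.30. BRAFV600E replicate 5, the highest of its group for Dll4, was also the highest of its group for B cells (−1.69), T cells (1.66), goblet cells (7.15) and enterocytes (7.54). It was the lowest of its group for fibroblasts (2.13), crypt base stem cells (−0.12) and proliferating cells (0.77).

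**Figure D3:**
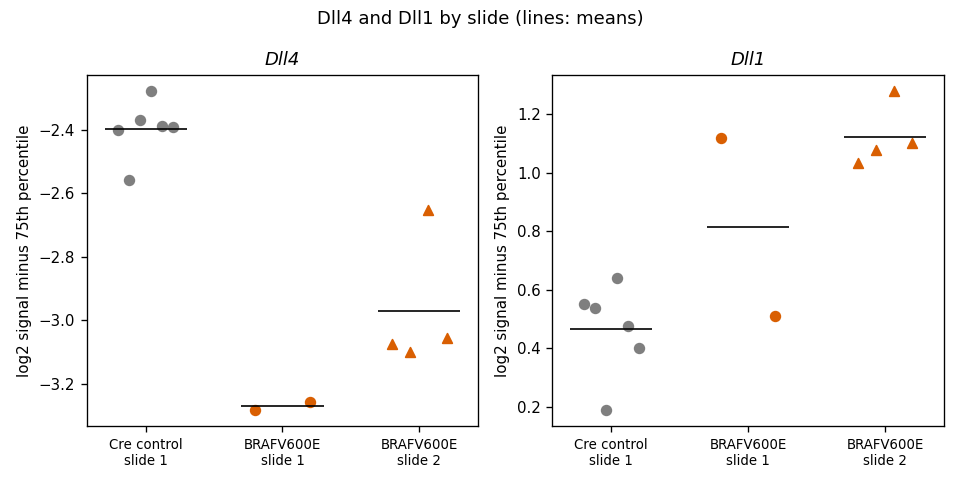
Log2 level of Dll4 and Dll1 by group and slide, 1 point per array and a line at each mean. The 2 BRAFV600E arrays on the Cre control slide are the lowest of the 12 for Dll4, whereas for Dll1 1 of them, at 0.51, lies among the Cre control arrays.

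Dll1, the ligand that acts with Dll4 in the crypt, was read by a probe at chr17:15504623-15504682 (mm9, minus strand) and ran from 0.19 through 0.51 to 0.64 in Cre control and from 0.51 through 1.09 to 1.28 in BRAFV600E. Replicate 2 of BRAFV600E lay within the Cre control range and the other 5 above it. Dll1 rose by 0.55 on the log2 scale, or 1.47-fold (SE 0.14, n = 6 per group, limma adjusted p = 0.0246). The call did not hold across slides: on slide 1 alone the log2 difference was 0.35 (limma adjusted p = 0.358), and in a fit that took slide as a block 0.35 (limma adjusted p = 0.253). It was also lost without Cre control replicate 3 (limma adjusted p = 0.0576) and without BRAFV600E replicate 4 (limma adjusted p = 0.0521). In MEKi the levels were 0.84, 0.37, 1.12 and 0.88 and in Vehicle 1.17, 0.74, 1.53 and 0.74. These overlapped widely, and the log2 fold change was −0.24 ± 0.23 (SE, n = 4 per group, limma adjusted p = 0.684).

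Jag1, a Jagged ligand of vessels and epithelium, ran from −1.90 through −1.63 to −0.86 in Cre control and from −1.23 through −1.12 to −0.71 in BRAFV600E. Cre control replicates 1 and 4 lay inside the BRAFV600E range and the other 4 below it. The log2 fold change of 0.40 ± 0.19 did not pass the test (SE, n = 6 per group, limma adjusted p = 0.172). In MEKi it stood at −1.48, −1.91, −1.05 and −1.39 and in Vehicle at −1.49, −1.30, −1.46 and −1.59, with a log2 fold change of 0.00 and a 95% interval of −0.42 to 0.43.

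Jag2, the other Jagged ligand, was dim. It was well above background on 3 of 6 Cre control and 4 of 6 BRAFV600E arrays, and ran from −5.08 through −4.91 to −3.99 in the first and from −6.67 through −4.90 to −4.00 in the second. The wide BRAFV600E range came from replicate 3 alone, which lay below every other array. The log2 fold change was −0.31 ± 0.38 (SE, n = 6 per group, limma adjusted p = 0.631), but −0.53 and past the threshold with normexp background correction (limma adjusted p = 0.0206). In MEKi it stood at −4.71, −4.99, −4.43 and −4.86 and in Vehicle at −5.46, −4.20, −4.80 and −4.65. The Vehicle range held all 4 MEKi arrays, and the log2 fold change was 0.03 ± 0.26 (SE, n = 4 per group, limma adjusted p = 0.968).

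**Figure D4:**
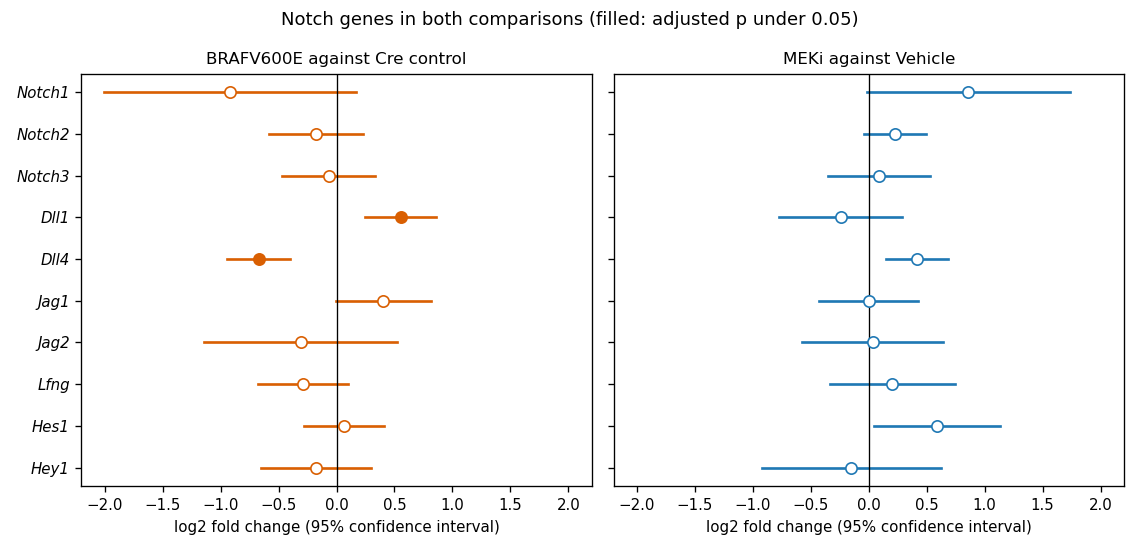
Log2 fold change of each gene with its 95% confidence interval, in BRAFV600E against Cre control (left) and MEKi against Vehicle (right). Filled circles passed the test; Dll4 sits at −0.67 on the left and 0.42 on the right, and Dll1 at 0.55 and −0.24.

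Lfng, the fringe enzyme among the 10 genes, ran from −3.00 through −2.23 to −2.12 in Cre control and from −3.20 through −2.57 to −2.35 in BRAFV600E. In each group replicate 1 lay well below the rest, and the log2 fold change was −0.29 ± 0.18 (SE, n = 6 per group, limma adjusted p = 0.303). In MEKi the levels were −1.82, −2.67, −1.98 and −1.94 and in Vehicle −2.11, −1.98, −2.46 and −2.68, with a log2 fold change of 0.20 ± 0.23 (SE, n = 4 per group, limma adjusted p = 0.740). A second Lfng probe was well above background on 1 of the 20 arrays and was not tested.

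Among the 8 genes whose promoters were searched, Lfng had the core letters of the Rbpj motif near its start site. Promoters of 300 bases, 250 before the start site to 50 after it, were taken from RefSeq on build GRCm38.p6, which held 9 for 8 of the 10 genes. Those of Hes1 and Hey1 were not analysed here. TGGGAA or its reverse complement TTCCCA stood in 1 of these 9, and in 25.6% of all 32851 promoters of that length. The Lfng window at chr5:140607091-140607390, on the plus strand, is printed because it holds the letters at 2 places, in capitals, and 3.79% of all promoters hold them at 2 or more.

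Lfng promoter: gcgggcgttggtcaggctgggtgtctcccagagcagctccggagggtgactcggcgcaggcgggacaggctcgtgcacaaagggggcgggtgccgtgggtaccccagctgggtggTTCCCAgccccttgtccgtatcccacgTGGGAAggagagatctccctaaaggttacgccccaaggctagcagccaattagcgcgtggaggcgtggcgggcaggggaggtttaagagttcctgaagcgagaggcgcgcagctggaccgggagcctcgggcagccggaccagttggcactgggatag

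The match starts 135 and 108 bases before the start site (−135 and −108). It describes the letters only.

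Hes1, the repressor by which Notch holds down Atoh1 in crypts, ran from −0.86 through −0.45 to −0.27 in Cre control and from −0.70 through −0.54 to 0.00 in BRAFV600E. The groups overlapped almost wholly, with a log2 fold change of 0.07 and a 95% interval of −0.28 to 0.41 (limma adjusted p = 0.824, n = 6 per group). In MEKi it stood at −0.67, −1.27, −1.18 and −0.22, and in Vehicle at −1.56, −1.49, −1.36 and −1.27. All 4 MEKi arrays lay above the Vehicle arrays, as in 12.1% of genes tested, but replicate 2 by a very small step. The log2 fold change was 0.59 ± 0.24 and did not pass the test (SE, n = 4 per group, limma adjusted p = 0.269).

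Hey1, a Notch target prominent in endothelium, ran from −2.82 through −2.43 to −1.92 in Cre control and from −3.00 through −2.64 to −1.84 in BRAFV600E. The ranges nearly coincided, and the log2 fold change was −0.18 ± 0.22 (SE, n = 6 per group, limma adjusted p = 0.632). In MEKi it stood at −3.00, −4.33, −2.69 and −3.49 and in Vehicle at −2.96, −3.15, −3.52 and −3.29, with a log2 fold change of −0.15 ± 0.34 (SE, n = 4 per group, limma adjusted p = 0.883). MEKi replicate 2, the lowest of all 20 arrays, was also the lowest for the endothelial list, at −2.45, and for the fibroblast list, at 1.39. Over the 20 arrays, with each group centred on its mean, Hey1 followed the mean of the 10 endothelial markers at r = 0.85 and rho = 0.81, the largest of 120 pairs of member and marker list. Hey1 also followed the fibroblast list at r = 0.66 and rho = 0.725 and the crypt base stem cell list at r = 0.61 and rho = 0.68. It ran against the goblet cell list at r = −0.67 and rho = −0.58. Jag1 followed the endothelial list at r = 0.68 and rho = 0.70, and Notch2 the fibroblast list at r = 0.83 and rho = 0.80 and the crypt base stem cell list at r = 0.81 and rho = 0.79. Notch1, by its repeat probe, followed the T cell list at r = 0.74 and rho = 0.755 and enterocytes at 0.74 and 0.53. In the opposite sense Jag1 ran against the goblet cell list, at r = −0.74 and rho = −0.75. Notch1 ran against the proliferating cell list, at r = −0.60 and rho = −0.58. Dll4 followed the endothelial list at r = −0.23. Among the members, Jag1 and Hey1 (r = 0.71), Jag1 and Notch2 (r = 0.69) and Jag1 and Jag2 (r = 0.60) varied together within groups. These are descriptions, since the arrays share slides and tissue make-up.

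Of the members, Dll4 had the largest moderated t in both comparisons, so the genes most like it were listed. Over 20 arrays and 15374 genes well above background on all of them, these were Ifi27 (r = 0.879), Glyctk (0.878), C2 (0.876), Ascl2 (0.875) and Gm8909 (0.874). With each group centred on its mean the values were 0.68, 0.46, 0.37, 0.02 and 0.54. The likeness to Ascl2, a transcription factor of crypt base stem cells, thus lay between groups. Ascl2 fell by 1.52 in BRAFV600E (SE 0.11, n = 6 per group, limma adjusted p = 1.25e-05) and rose by 1.00 in MEKi (SE 0.17, n = 4 per group, limma adjusted p = 0.0314), both on the log2 scale. A second, dimmer Ascl2 probe at chr7:150176638-150176697 in place of chr7:150152734-150152793 (mm9) differed from it, with log2 fold changes of 0.22 ± 0.47 and −0.65 ± 0.48 (SE, limma adjusted p = 0.802 and 0.637 over all probes tested).

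Of 46 further genes of the pathway, 44 were tested in each comparison, Hes3 and Hey2 being too dim. In BRAFV600E, 8 were lower and 1 higher, 9 of 44 beside the 12.9% of all genes, with a median log2 fold change of −0.12 over the 44. In MEKi 1 was higher and 0 lower, with a median of 0.12. Without scaling between arrays, 20 were higher and 0 lower in BRAFV600E, beside 9157 higher and 177 lower of all 19036 genes tested. In MEKi 11 of the 44 had an unadjusted p under 0.05, beside 3147 of all 19230 genes tested.

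The fringe enzymes beside Lfng were lower in BRAFV600E. Rfng fell by 0.73 on the log2 scale, from 3.55 ± 0.17 to 2.82 ± 0.23 (SD, n = 6 each), without overlap (limma adjusted p = 0.00549), and by 0.99 where slide entered as a block (limma adjusted p = 0.00414). Mfng fell by 0.60 (limma adjusted p = 0.0238). In MEKi, Rfng had a log2 fold change of 0.69 ± 0.17 and Mfng of 0.09 ± 0.24 (SE, limma adjusted p = 0.0975 and 0.897, n = 4 per group). Pofut1 and Poglut1, which attach sugars to the receptor, passed in neither comparison.

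Enzymes that act on ligand and receptor turnover were also among the lower genes. Neurl1a, a ubiquitin ligase for Notch ligands, fell by 0.61, and Dtx4, a Deltex protein that binds the receptor, fell by 0.62, both without overlap between groups (limma adjusted p = 0.00726 and 0.00797, n = 6 per group). Dtx1, a second Deltex protein, fell by 0.99 (limma adjusted p = 0.0283), and the log2 fold change with the inhibitor was 1.17 ± 0.32 (SE, limma adjusted p = 0.116). Aph1c, a subunit of gamma-secretase, fell by 0.59 (limma adjusted p = 0.0411). The leading probes of the other 8 proteases and subunits passed in neither comparison, Adam10 among them with log2 fold changes of 0.27 and −0.06. For Aph1a, another subunit of gamma-secretase, the 4 probes tested disagreed in BRAFV600E. The leading one stood at 0.18 ± 0.22, and others at 0.68 ± 0.18, 0.47 ± 0.28 and 0.00 ± 0.19 (SE, n = 6 per group), of which the 0.68 passed (limma adjusted p = 0.0326 over all probes tested).

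The remaining calls in BRAFV600E were lost under the slide block. Dll3, a Delta-like protein that does not activate receptors on other cells, fell by 0.98 (limma adjusted p = 0.0228), with 3 of 6 BRAFV600E arrays well above background. Hes5, a Notch target, fell by 1.80 (limma adjusted p = 0.0346), with SDs of 1.24 in BRAFV600E and 0.54 in Cre control. Maml1, a coactivator of the nuclear complex, rose by 0.58 (limma adjusted p = 0.0401). Under the slide block, which compares 2 BRAFV600E arrays with the 6 Cre control arrays, these 3 had log2 fold changes of −1.18, −1.37 and 0.52 (limma adjusted p = 0.0598, 0.247 and 0.201), while Aph1c, Dtx1, Dtx4, Mfng, Neurl1a and Rfng kept theirs under 0.05. Hes2, a Hes family member, was not called at −0.87 (limma adjusted p = 0.0805) but was at −1.77 with the block (limma adjusted p = 0.00190).

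**Figure D5:**
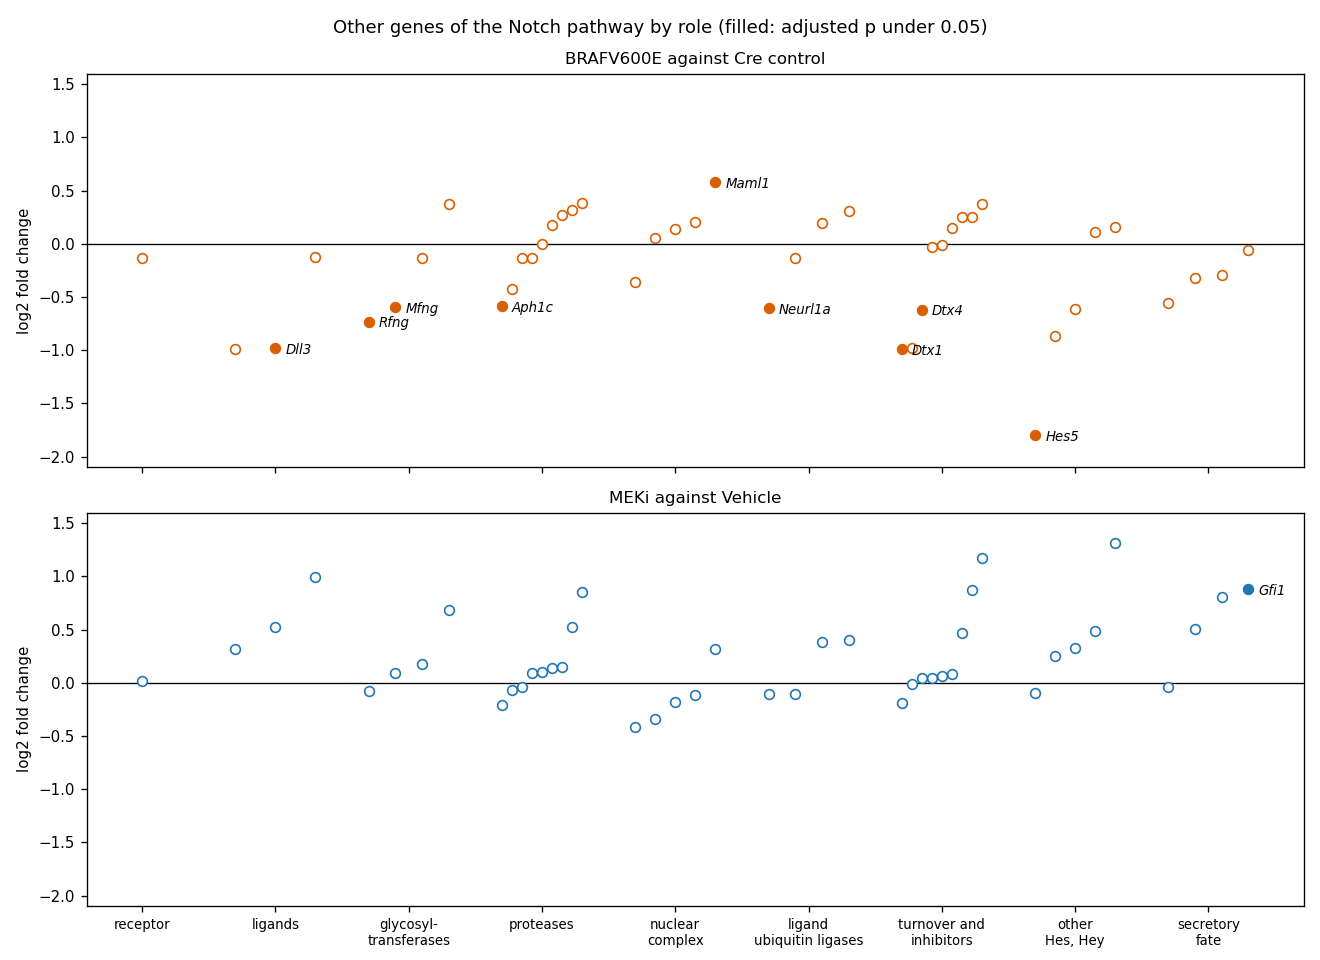
Log2 fold change of the 44 other pathway genes tested, by role, in BRAFV600E against Cre control (top) and MEKi against Vehicle (bottom). Each circle is 1 gene, and filled, named circles passed the test; 8 of the 9 calls in the upper panel lie below 0, and Gfi1, at 0.88, is the only call in the lower.

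The secretory genes on the far side of Hes1 gave 1 call. Gfi1, a zinc-finger repressor of the goblet and Paneth lineage, rose in MEKi by 0.88 on the log2 scale, from −1.48 ± 0.23 to −0.61 ± 0.17 (SD, n = 4 each), without overlap (limma adjusted p = 0.0334). Its call was lost in each of the 6 fits that left out MEKi replicate 1, 3 or 4 or Vehicle replicate 1, 3 or 4, and also without scaling, without the filter on dim probes, with every probe tested and in the fit that took Y-linked signal into account. In BRAFV600E the log2 fold change of Gfi1 was −0.56 ± 0.21 (SE, n = 6 per group, limma adjusted p = 0.0946). Atoh1 had log2 fold changes of −0.32 in BRAFV600E and 0.81 in MEKi (limma adjusted p = 0.232 and 0.254). For Notch4, a receptor of endothelium, the probes disagreed. The leading one, at chr17:34725384-34725442 (mm9), stood at −0.13 in BRAFV600E and 0.02 in MEKi and did not pass. A dimmer one was mapped to chr17:35104770-35104829, well apart from the other Notch4 probes, and whether it reads Notch4 was not tested. It was lower in BRAFV600E by −0.96 ± 0.21 (SE, n = 6 per group, limma adjusted p = 0.0155 over all probes tested), without overlap between groups. In MEKi it stood at −0.68 ± 0.40 (SE, n = 4 per group, limma adjusted p = 0.535 over all probes tested). Neither Rbpj, at 0.14 and 0.32, nor the targets Nrarp, at 0.25 and 0.04, and Heyl, at 0.16 and −0.10, passed in either comparison on its leading probe.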

How the data were processed

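The 10 genes and all lists were chosen with earlier results of these data known. Groups came from the labels. A treatment text that is identical on all 20 arrays and matches no group was not used. Replicate numbers are in accession order, and that each array is a separate mouse comes from the study's methods. Per the file headers, the authors extracted 1-colour arrays with Agilent Feature Extraction (10.5.1.1) to a background-subtracted processed intensity per spot, not normalized between arrays, and deposited other columns that mark each spot for saturation, for lying well above background or for being an outlier. The deposited series matrix holds the same intensity.

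From these, outlier spots were dropped, copies of a probe averaged, and log2 intensity minus the array's 75th percentile computed over 59305 spots that are not controls. Probes were named through RefSeq (34023 by accession, 9993 by symbol, 318 by synonym, 12271 unnamed). Coordinates are mm9, numbered from 1. The probe with the highest mean over 20 arrays stood for a gene if well above background on at least 6 of 12 or 4 of 8 arrays. Each pair of groups was fitted apart from the other with limma (3.58.1, R 4.3.3), two-sided, without covariates, after a test on simulated data. Alternatives were normexp background correction (offset 50), quantile normalization, no scaling, other filters, every probe, all 20 arrays, array weights, Y-linked signal, slide, and leaving out each array. Named were the 10 members, every pathway gene called in either comparison, and Notch4, Dll3, Rbpj, Adam10, Hes5, Hey2, Heyl, Nrarp and Atoh1. Others were named after their values were seen. The number of arrays limits the precision.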

Additional observations from a re-analysis of the deposited data

Results flagged for a closer look

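In 56 sets of 4 to 6 arrays, 1 per probe and group, the highest or lowest array stood apart by Dixon's 95% criterion in 5, and chance alone marks about 1 in 20. BRAFV600E replicate 2 was the low array for Dll1, at 0.51 against 1.03 to 1.28 on the others, and for Notch1, at 2.05 against 4.17 to 4.84. BRAFV600E replicate 5 was the high array for Dll4, at −2.65 against −3.28 to −3.05. For Lfng, Cre control replicate 1 stood at −3.00 against −2.42 to −2.12 and BRAFV600E replicate 1 at −3.20 against −2.64 to −2.35. Without BRAFV600E replicate 5, Dll4 was lower by −0.76 on the log2 scale (limma adjusted p = 0.0025).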

How the results depend on the processing

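No paired analysis was possible because the replicate numbers are in accession order and pair no arrays. Of 415 values of single members under the alternatives, 380 kept their direction and side of the threshold, 3 passed it newly, 4 lost it and 28 changed sign. Besides Dll4 without scaling, the 28 were values that had not passed the test. Without scaling, where the median of all genes moved by 0.81, 4 members were called in BRAFV600E, all higher. Of all 19036 genes tested, 9334 were called in that fit, 9157 of them higher. Dll4 then stood at 0.14, Notch2 at 0.63, Notch3 at 0.84, Jag2 at 0.50, Hey1 at 0.63 and Lfng at 0.52, and 20 other pathway genes were called, all higher. Of all genes called, 49.6% were higher, but 98.1% without scaling, 33.1% with normexp, 31.9% with slide as a block and 27.1% within slide 1. With slide as a block and within slide 1, 1 member was called, Dll4, and Notch3 (0.0829), Jag2 (0.45) and Hey1 (0.23) changed sign. Within slide 1, 5 pathway genes were called, beside 3.84% of all genes tested. In MEKi against Vehicle, 0 members were called by limma under every alternative. Jag1 was −0.0133 with quantile normalization and −0.0211 without scaling, and Jag2 −0.0718 with normexp and −0.0666 with quantile normalization. There, 0 pathway genes were called without scaling, without the filter on dim probes, with every probe tested and with the Y-linked covariate, 2 with all 20 arrays and 3 with array weights. Of all 19230 genes, 554 were called with all 20 arrays and 1201 with array weights. With 1 array left out, 1473 to 2946 of all 19036 genes were called in BRAFV600E and 76 to 370 of 19230 in MEKi. Leaving out 1 array gave 1 to 2 members and 3 to 10 pathway genes in BRAFV600E (5 without Cre control replicate 2 or 5, 3 without Cre control replicate 3, 4 without BRAFV600E replicate 2), and 0 to 2 pathway genes in MEKi. It moved Notch3 over −0.21 to 0.0044, Jag2 over −0.51 to 0.0256 and Hes1 over −0.0238 to 0.12 in BRAFV600E, and Notch3 over −0.0576 to 0.18, Jag1 over −0.13 to 0.15, Jag2 over −0.19 to 0.23 and Hey1 over −0.38 to 0.17 in MEKi. The cause of these moves was not tested. Without probes that held GAAGAAGAA, chosen after seeing the data, 9 members were tested and the 2 calls, Dll4 and Dll1, were kept. Dll4 ran from −0.87 to −0.58 in BRAFV600E over 23 alternatives other than no scaling, past the threshold in each. Dim signal limits Jag2 and the second probes of Dll1, Lfng, Notch1 and Notch2.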
